A study of Homo sapiens with 8 samples.

Results

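MS4A1, the gene of CD20, and 7 other genes of B cell surface antigens (CD27, CD37, CD38, CD52, CD72, FCER2 and CLEC17A) were followed in RNA-seq libraries of the Burkitt's lymphoma lines Raji and Raji-4RH. The 8 genes were chosen by symbol, with earlier results of these data known, from the 18143 genes placed in the expression table. All 8 passed the filter on low values. Their counts and medians beside those of all genes are therefore a description and not a test. Raji is the rituximab-sensitive line (RSCL), and Raji-4RH is the rituximab-resistant line (RRCL) that was derived from Raji by repeated exposure to rituximab. Each line was treated for 24 h with DMSO or with 3 μM chidamide, a benzamide-class inhibitor of histone deacetylases, and cells were harvested by flow sorting before RNA extraction. Each of the 4 groups (Raji DMSO, Raji chidamide, Raji-4RH DMSO, Raji-4RH chidamide) had 2 libraries. The labels do not say whether the 2 libraries of a group came from separate cultures, so the p-values measure the spread between these libraries, which may be technical. Each line is represented by itself alone, so a difference between Raji-4RH and Raji cannot be told apart from any other difference between these particular cultures.

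CD20 spans the B cell membrane and is the target of rituximab, which kills cells by complement, by effector cells and by direct signals. The other antigens have separate roles: CD27 is a TNF receptor family member that binds CD70, CD37 is a tetraspanin, CD38 is an enzyme on the cell surface that consumes NAD, CD52 is a short GPI-anchored glycopeptide, and CD72 is an inhibitory co-receptor of the B cell receptor. FCER2 (CD23) is the low-affinity IgE receptor, and CLEC17A (prolectin) is a sugar-binding lectin of germinal centre B cells, both of the C-type lectin fold. Several of them, CD37, CD38 and CD52 among them, are targets of therapeutic antibodies.

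On GRCh38 with the GENCODE v29 annotation, MS4A1 (ENSG00000156738) lies at chr11:60455752-60470760 on the + strand, CD27 (ENSG00000139193) at chr12:6444867-6451718 (+), CD37 (ENSG00000104894) at chr19:49335171-49343335 (+) and CD38 (ENSG00000004468) at chr4:15778275-15853230 (+). CD52 (ENSG00000169442) lies at chr1:26317957-26320523 (+), CD72 (ENSG00000137101) at chr9:35609533-35646810 on the - strand, FCER2 (ENSG00000104921) at chr19:7688758-7702146 (-) and CLEC17A (ENSG00000187912) at chr19:14583084-14611157 (+). All 8 are protein-coding genes, and the gene length used by the authors equalled the joined exon length of that annotation for each, from 935 bases for CD52 to 6855 bases for CD38. The promoter table of RefSeq (GRCh38.p14) held entries for 5 of the 8 genes, CD27, CD38, CD52, CD72 and FCER2, the last with 2 starts, and none for MS4A1, CD37 and CLEC17A. The windows of CD38, FCER2 and CD27 are shown because, of the 5 genes with an entry, these 3 had the largest log2 fold changes with chidamide. They run 5′ to 3′ up to the RefSeq start and leave out bases inside the gene's own GENCODE exons, at chr4:15778078-15778274 (+) for CD38, chr19:7702147-7702381 (-) and chr19:7699480-7699691 (-) for the upstream and the downstream start of FCER2, and chr12:6443642-6443891 (+) for CD27, whose RefSeq start is upstream of the GENCODE start. Capitals mark E-box matches.
CD38: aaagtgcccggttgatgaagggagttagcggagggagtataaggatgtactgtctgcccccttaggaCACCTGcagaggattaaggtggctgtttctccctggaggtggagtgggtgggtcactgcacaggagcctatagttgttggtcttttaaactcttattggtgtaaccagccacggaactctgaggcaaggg
FCER2 upstream start: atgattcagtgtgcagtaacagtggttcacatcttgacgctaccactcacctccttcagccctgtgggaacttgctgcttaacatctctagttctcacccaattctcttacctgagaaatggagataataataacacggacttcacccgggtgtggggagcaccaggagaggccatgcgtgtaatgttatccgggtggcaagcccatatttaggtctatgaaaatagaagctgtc
FCER2 downstream start: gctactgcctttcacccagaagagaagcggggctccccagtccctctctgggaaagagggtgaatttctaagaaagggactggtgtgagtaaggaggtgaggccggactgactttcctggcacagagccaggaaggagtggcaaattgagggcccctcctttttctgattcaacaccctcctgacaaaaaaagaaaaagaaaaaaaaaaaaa
CD27: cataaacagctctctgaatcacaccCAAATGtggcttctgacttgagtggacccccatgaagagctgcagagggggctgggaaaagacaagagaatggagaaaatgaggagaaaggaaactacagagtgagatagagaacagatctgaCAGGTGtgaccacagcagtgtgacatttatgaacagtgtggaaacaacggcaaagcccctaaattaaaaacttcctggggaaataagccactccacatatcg

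A set of 6 motifs was searched on both strands in the 250 bases before each start: the octamer ATGCAAA, the PU.1 core GAGGAAG, the E-box CANNTG, the STAT6 palindrome (TTC and GAA with 4 bases between them), the Sp1 GC box GGGCGG and the TATA box TATAAA. CD38 held 2 E-boxes, CACCTG and CAAGTG, of which the second lies in the exonic bases not shown, and CD27 held CAAATG and CAGGTG. Of the 35116 promoters of the table, 61.8% held an E-box, so these matches are common. Neither FCER2 window held any of the 6 motifs. CD72 held 3 E-boxes and 2 PU.1 cores, and CD52 held 1 PU.1 core. The octamer was in 3.94% of all promoters, the PU.1 core in 11.2%, the STAT6 palindrome in 5.38%, the GC box in 42.6% and the TATA box in 10.7%. The CD27, CD38 and FCER2 windows had 2, 3, 5 (upstream start) and 4 (downstream start) CpG dinucleotides, against a median of 11 over all promoters. These matches describe the letters of the windows and nothing about binding.

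Libraries held 13991697 to 21193441 reads, and the smallest was a Raji-4RH chidamide library. Expression is given as FPKM, reads scaled to gene length and library depth. In the deposited table the values slip below the gene labels, so the values of MS4A1, CD27, CD52, CD72 and CLEC17A were read from later rows, and those of CD37, CD38 and FCER2 from the row of the label. As a check, 54 ribosomal protein genes past the first slip had a median of 343 FPKM once placed and 2.44 FPKM in the row of their label. Of these, 22 were shifted by as many rows as CD27 and CD72, and 10 by as many as MS4A1. Only 2 shared the shift of CD52 and 1 that of CLEC17A, so the check is thin for these 2 genes. Read from the row of the label instead, MS4A1 would show -0.21 in Raji and -0.57 in Raji-4RH as its log2 fold change with chidamide, so its rise below rests on the placing. Of the 11 defining B cell markers 10 were placed, and each reached 1 FPKM in at least 1 group, and their summed level was 1180 to 1230 FPKM in Raji DMSO, 1090 in both libraries of Raji chidamide, 801 to 843 in Raji-4RH DMSO and 633 to 661 in Raji-4RH chidamide. CR2 (CD21) was the marker near 0 in Raji-4RH, at 0.103 FPKM with DMSO and 0.114 with chidamide, against 32.4 and 126 in Raji. Summed levels of 8 T cell markers were 0.247 to 0.353 FPKM in Raji DMSO, 5.86 to 5.91 in Raji chidamide, 4.98 to 5.71 in Raji-4RH DMSO and 14.9 to 15.8 in Raji-4RH chidamide. In the same order, 5 NK cell markers summed to 1.4 to 1.71, 2.99 to 3.85, 12.2 to 13.5 and 28.6 to 29.7 FPKM, 6 placed myeloid markers to 0.981 to 1.07, 6.85 to 8.32, 0.826 to 0.897 and 8.38 to 9.76, and 2 placed erythroid markers stayed under 1. CD2, CD8A, NCAM1 and KLRD1, which define T and NK cells, were under 0.1 FPKM in every group. CD3E, CD4, CD28, NKG7 and PRF1 reached 1 FPKM in at least 1 group. In Raji-4RH, CD4 was at 4.34 FPKM with DMSO and 8.11 with chidamide, and PRF1 at 11 and 23.6. CD3E was above 1 only in Raji-4RH chidamide (3.52), CD28 was highest in Raji chidamide (4.59), and NKG7 was above 1 in every group (1.47 to 5.33). The part of these markers in the values below was not tested. In bulk libraries fewer cells of a type and less RNA per cell cannot be told apart.

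Differences were tested with limma on log2(FPKM + 1) over 10710 genes that reached 1 FPKM in 2 or more libraries, and a gene was called at a Benjamini-Hochberg adjusted p under 0.05. A log2 fold change below is a difference on that scale, which understates the change of genes at low level. An exact permutation test of 2 against 2 libraries cannot go below p = 0.333, so the tests rest on the spread pooled by limma over genes and groups. With chidamide in Raji-4RH, 5 of the 8 genes were called higher (MS4A1, CD37, CD38, FCER2 and CLEC17A) and 2 lower (CD27 and CD72), where 43.3% of all genes tested were called higher and 31.6% lower. In Raji 3 were called higher (MS4A1, FCER2 and CLEC17A) and 1 lower (CD27), where 31.5% of all genes were called higher and 28.5% lower. Calls were thus common among all genes, and the sizes below say more than the counts. The median log2 fold change of the 8 genes was 0.70 in Raji-4RH and -0.02 in Raji, beside 0.09 and 0.02 over all genes. Quantile normalization moved the median of all genes in Raji-4RH from 0.0929 to -0.0219 and the split of calls from 4642 higher and 3380 lower to 3718 higher and 4057 lower. Every gene of the 8 that was called in these 2 comparisons kept its direction and its call under both other scalings.

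**Figure D1:**
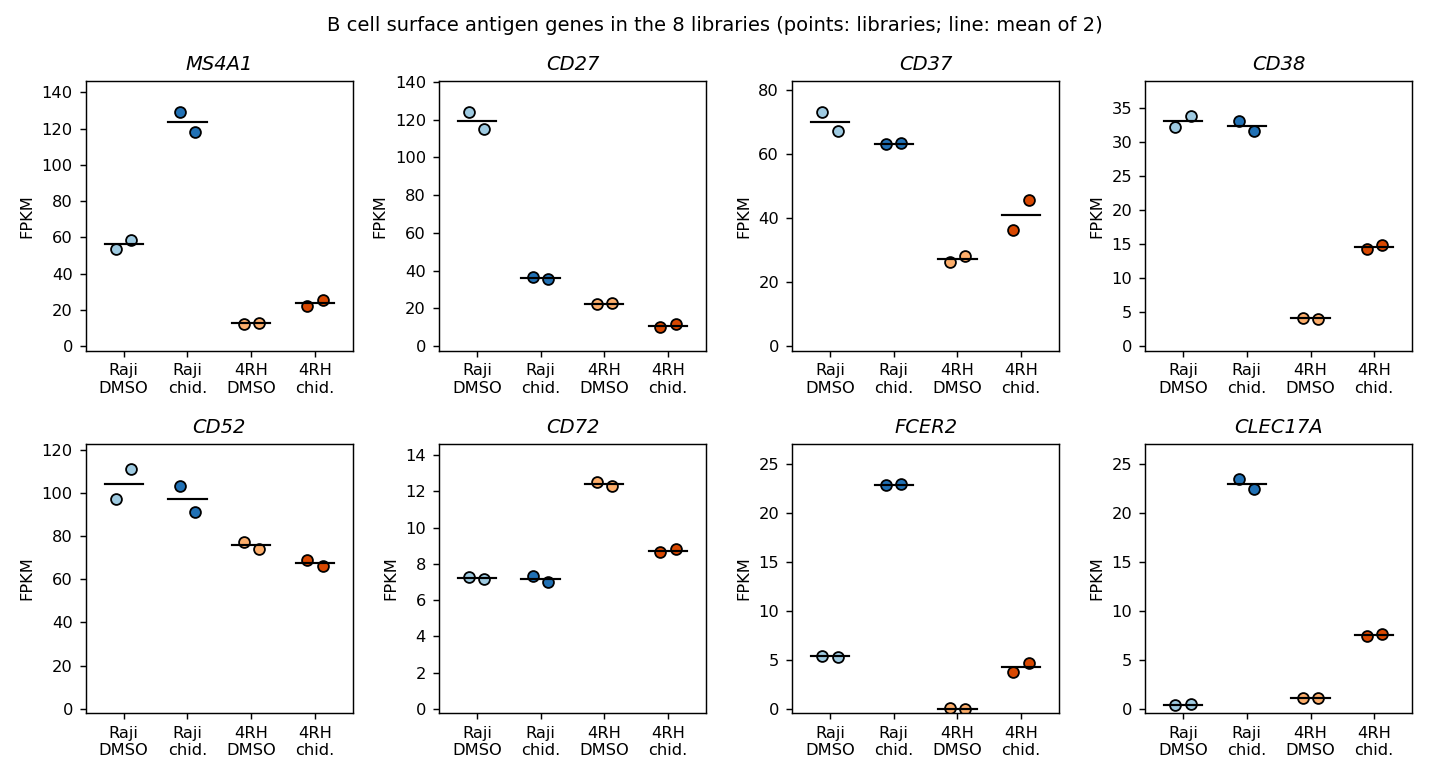
FPKM (linear axes, 1 panel per gene) of the 8 surface antigen genes in the 8 libraries, with 1 point per library and a line at the mean of the 2 libraries of each group (4RH, Raji-4RH; chid., chidamide). MS4A1 rose with chidamide in both lines from unequal starting levels, FCER2 and CLEC17A rose from near 0 in one of the lines, CD27 fell in both, and CD38 rose in Raji-4RH to 14.6 FPKM from 4.08.

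MS4A1 was expressed in all libraries and rose with chidamide in both lines. It stood at 53.8 and 58.7 FPKM in Raji DMSO and at 129 and 118 FPKM in Raji chidamide. In Raji-4RH it stood at 12.5 and 12.9 FPKM with DMSO and at 22.0 and 25.3 FPKM with chidamide. No library of one group reached into the range of another, and the order of the groups was Raji chidamide, Raji DMSO, Raji-4RH chidamide and Raji-4RH DMSO. Chidamide raised MS4A1 by 1.12 on the log2 scale in Raji (SE 0.0794, limma adjusted p = 9.38e-06), 2.2-fold by the group means. In Raji-4RH the rise was 0.84 (SE 0.0794, limma adjusted p = 1.87e-05), 1.86-fold. The 2 rises differed by -0.28 (95% interval -0.54 to -0.02), with a limma adjusted p of 0.0704. Without the second Raji-4RH chidamide library that difference was -0.38 and passed the threshold (limma adjusted p = 0.00923), and with median-centred samples it was -0.31 (limma adjusted p = 0.0361). After chidamide, Raji-4RH held 42% of the MS4A1 level of untreated Raji (23.6 FPKM ± 2.31 against 56.3 ± 3.46, SD, n = 2 each).

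FCER2, whose product CD23 binds IgE and CR2, rose with chidamide in both lines from different starting levels. In Raji it was at 5.39 and 5.33 FPKM with DMSO and at 22.8 and 22.9 FPKM with chidamide, a 4.27-fold difference of the means. In Raji-4RH DMSO only 3 and 1 reads were counted (0.0653 and 0.0193 FPKM), and chidamide libraries held 129 and 212 reads (3.76 and 4.70 FPKM). The groups of each line did not overlap, and Raji-4RH with chidamide stood below untreated Raji, at 78.9% of its mean. The log2 fold change was 1.91 in Raji (SE 0.0838, limma adjusted p = 7.73e-07) and 2.32 in Raji-4RH (SE 0.0838, limma adjusted p = 1.19e-07). Because so few reads were seen in Raji-4RH DMSO, the ratio of reads relative to the library totals was computed as well, at 105 with a 95% exact interval of 40.7 to 388 that covers counting error alone. The fitted value in Raji-4RH depends on the pseudocount and was 4.94 with a pseudocount of 0.1 and 6.54 with voom on the recovered reads. The difference between the lines was 0.41 on the log2(FPKM + 1) scale (SE 0.118, limma adjusted p = 0.0202), 2.87 with a pseudocount of 0.1 and 4.45 with voom. It lost its call under quantile normalization (0.16, limma adjusted p = 0.344), and also when any one of 5 libraries was left out (both Raji DMSO, both Raji chidamide or the second Raji-4RH DMSO library), at values of 0.38 to 0.42 and limma adjusted p of 0.055 to 0.0711.

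CLEC17A had 16 and 21 reads in the Raji DMSO libraries (0.362 and 0.466 FPKM) and reached 23.4 and 22.4 FPKM in Raji chidamide. In Raji-4RH it went from 1.12 FPKM in both DMSO libraries to 7.44 and 7.59 FPKM. Every chidamide library was above every DMSO library, and Raji chidamide stood above Raji-4RH chidamide although Raji DMSO stood below Raji-4RH DMSO. Chidamide raised CLEC17A by 4.08 on the log2 scale in Raji (SE 0.0603, limma adjusted p = 8.84e-09), 55.3-fold by the means, and 2.01 in Raji-4RH (SE 0.0603, limma adjusted p = 5.74e-08), 6.72-fold. The rise in Raji-4RH was the smaller one, by a difference of -2.07 on the log2 scale (SE 0.0853, limma adjusted p = 3.04e-06). Read from the row of the label, this difference was 0.0681 (limma adjusted p = 0.575).

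CD38 rose in Raji-4RH, and no change was called in Raji. Raji-4RH DMSO libraries held 4.09 and 4.06 FPKM and Raji-4RH chidamide libraries 14.3 and 14.9 FPKM, with no overlap. Raji held 32.2 and 33.8 FPKM with DMSO and 33.0 and 31.6 FPKM with chidamide, so that the 2 Raji groups overlapped. The log2 fold change in Raji-4RH was 1.62 (SE 0.0534, limma adjusted p = 8.23e-08), 3.59-fold. In Raji it was -0.03 with a 95% interval of -0.15 to 0.09 (limma adjusted p = 0.668), and its sign turned to 0.078 under quantile normalization. The difference between the lines was itself called, at 1.65 (SE 0.0755, limma adjusted p = 4.44e-06). With chidamide, Raji-4RH reached 44.3% of the CD38 level of untreated Raji.

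CD27 fell with chidamide in both lines. In Raji it went from 124 and 115 FPKM to 36.9 and 35.7 FPKM, and in Raji-4RH from 22.1 and 23.0 FPKM to 10.1 and 11.5 FPKM. The 4 groups did not overlap, with Raji DMSO highest and Raji-4RH chidamide lowest. CD27 changed by -1.69 on the log2 scale in Raji (SE 0.0684, limma adjusted p = 5.46e-07), to 30.4% of the DMSO mean, and -1.0 in Raji-4RH (SE 0.0684, limma adjusted p = 2.98e-06), to 48%. The fall was larger in Raji by 0.69 on the log2 scale (SE 0.0968, limma adjusted p = 0.000662). CD27 shares 522 bases, 37% of its exons, with CD27-AS1 on the opposite strand. Strand was not stated for the counting, so reads of these 2 genes cannot be told apart there, and CD27-AS1 was not analysed here.

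CD37 rose in Raji-4RH, from 26.5 and 28.3 FPKM with DMSO to 36.4 and 45.8 FPKM with chidamide, without overlap but with the wider spread in the treated group. In Raji it was at 73.2 and 67.3 FPKM with DMSO and at 63.2 and 63.6 FPKM with chidamide. The log2 fold change in Raji-4RH was 0.56 (SE 0.0988, limma adjusted p = 0.000882), 1.5-fold. In Raji it was -0.15 with a 95% interval of -0.37 to 0.08 (limma adjusted p = 0.238), although the 2 treated Raji libraries were below both DMSO libraries. That fall was called when either Raji-4RH chidamide library was left out of the fit, at -0.15 with a limma adjusted p of 0.034 each time. The difference between the lines was called at 0.71 (SE 0.14, limma adjusted p = 0.00387). CD37 shares 7.67% of its exons with TEAD2 on the opposite strand, which had 0.657 to 3.15 FPKM over the 4 groups.

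CD72 fell with chidamide in Raji-4RH. It went there from 12.5 and 12.3 FPKM to 8.65 and 8.83 FPKM, without overlap. In Raji it was at 7.30 and 7.15 FPKM with DMSO and 7.32 and 7.0 FPKM with chidamide, and these groups overlapped. CD72 changed by -0.46 on the log2 scale in Raji-4RH (SE 0.0517, limma adjusted p = 5.49e-05) and -0.01 in Raji (95% interval -0.13 to 0.11, limma adjusted p = 0.873). The difference was called at -0.45 (SE 0.0731, limma adjusted p = 0.00141). CD72 shares 509 bases, 15% of its exons, with TESK1 on the opposite strand. TESK1 had means of 8.64 FPKM in Raji-4RH DMSO, 5.59 in Raji-4RH chidamide, 20.2 in Raji DMSO and 18.7 in Raji chidamide, and its part in the CD72 values was not tested.

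CD52 was not called as changed by chidamide in either line. Raji held 97.2 and 111 FPKM with DMSO and 103 and 90.9 FPKM with chidamide, and the groups overlapped. Raji-4RH held 77.3 and 74.0 FPKM with DMSO and 68.9 and 66.2 FPKM with chidamide, with both treated libraries below the untreated ones. The log2 fold change was -0.10 in Raji (95% interval -0.28 to 0.09, limma adjusted p = 0.337) and -0.16 in Raji-4RH (95% interval -0.35 to 0.03, limma adjusted p = 0.103). In Raji-4RH it became 0.12 under quantile normalization and -0.24, past the threshold, with median-centred samples (limma adjusted p = 0.029), so no direction is given. The difference between the lines was -0.06 (95% interval -0.33 to 0.20, limma adjusted p = 0.674).

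**Figure D2:**
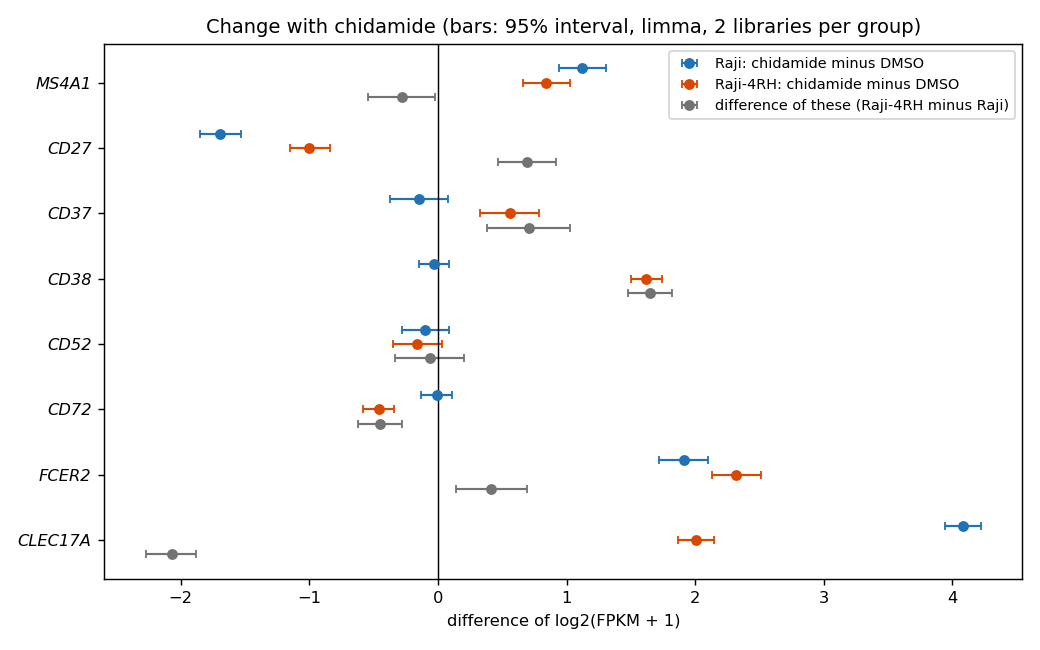
Differences of log2(FPKM + 1) with chidamide in Raji and in Raji-4RH and the difference between them for the 8 genes, with points at the limma estimate and bars at its 95% interval. CLEC17A rose by 4.08 in Raji and 2.01 in Raji-4RH, CD38 by 1.62 in Raji-4RH with an interval across 0 in Raji, and CD52 intervals cross 0 throughout.

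Over the 8 genes, the change with chidamide was called as different between the lines for 6 (CD27, CD37, CD38, CD72, FCER2 and CLEC17A), where 48.8% of all genes were called in either direction. CD37 and CD38 were raised in Raji-4RH and not called in Raji, CD72 was lowered in Raji-4RH and not called in Raji, and the other 3 moved in the same direction in both lines by unequal amounts. For MS4A1 and CD52 no difference was called. This test uses the same 8 libraries, treated and untreated, as the separate comparisons above, so the tests are not independent of each other.

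With DMSO, 6 of the 8 genes were called lower in Raji-4RH than in Raji (MS4A1, CD27, CD37, CD38, CD52 and FCER2), where 32.4% of all genes were called lower, and 2 higher (CD72 and CLEC17A), where 41.2% were called higher. The groups of the 2 lines did not overlap for any of the 8. The share of all genes without overlap was not counted, so this is not a trait particular to these 8. CD38 differed by -2.74 on the log2 scale (SE 0.0534, limma adjusted p = 2.27e-09) and held 12.4% of the Raji mean. CD27 differed by -2.35 (SE 0.0684, limma adjusted p = 1.85e-08), MS4A1 by -2.06 (SE 0.0794, limma adjusted p = 8.46e-08) and CD37 by -1.33 (SE 0.0988, limma adjusted p = 4.65e-06), which left 18.9%, 22.5% and 39% of the Raji means. FCER2 differed by -2.61 (SE 0.0838, limma adjusted p = 3.11e-08), with 524 reads in the 2 Raji libraries against 4 in Raji-4RH, a ratio relative to the library totals of 131 (95% exact interval 50.9 to 483, counting error alone). CD52 held 72.8% of the Raji mean, a log2 difference of -0.45 (SE 0.0815, limma adjusted p = 0.00108). CD72 was 1.72-fold higher in Raji-4RH (log2 difference 0.71, SE 0.0517, limma adjusted p = 4.14e-06). CLEC17A was 2.7-fold higher from low levels (0.58, SE 0.0603, limma adjusted p = 3.49e-05), and this value ranged from 0.30 under quantile normalization to 1.25 with a pseudocount of 0.1 and 1.42 with voom.

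With chidamide in both lines, 7 of the 8 genes were called lower in Raji-4RH than in Raji, where 35% of all genes were called lower, and CD72 was called higher, where 44.3% were called higher. CLEC17A thus changed sides, from 0.58 with DMSO to -1.49 with chidamide (SE 0.0603, limma adjusted p = 9.6e-08). The line difference of CD38 was smaller with chidamide (-1.09, SE 0.0534, limma adjusted p = 2.8e-07), and Raji-4RH then held 45.2% of the Raji mean. MS4A1 in treated Raji-4RH held 19.1% of treated Raji (-2.34, SE 0.0794, limma adjusted p = 3.57e-08). CD27 held 29.8%, CD37 64.9%, CD52 69.6%, FCER2 18.5% and CD72 122% of treated Raji, with limma adjusted p between 7.02e-08 and 0.00176. By mean level per length, CD27 (119 FPKM) and CD52 (104 FPKM) led the 8 genes in Raji DMSO, and their libraries did not overlap (115 and 124 against 97.2 and 111). MS4A1 led in Raji chidamide at 124 FPKM, and CD52 led in both Raji-4RH groups at 75.7 and 67.5 FPKM. The last places were held by CLEC17A in Raji DMSO (0.414 FPKM), CD72 in Raji chidamide (7.16) and FCER2 in both Raji-4RH groups (0.0423 and 4.23).

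**Figure D3:**
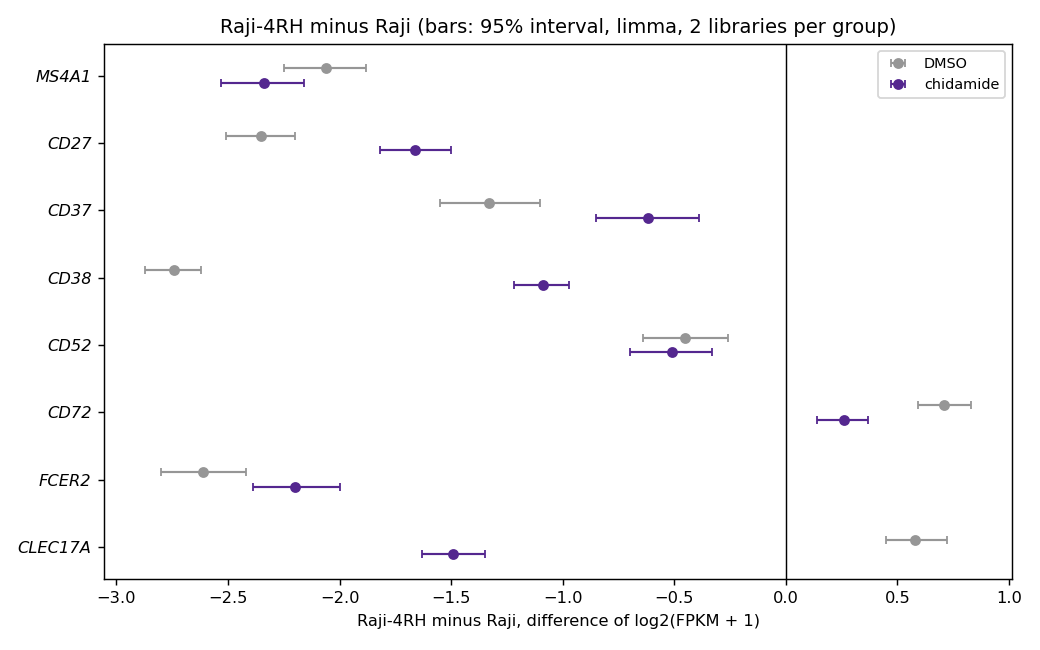
Raji-4RH minus Raji for the 8 genes, as differences of log2(FPKM + 1) with DMSO and with chidamide (points: limma estimates; bars: 95% intervals). CD72 lies above 0 in both, CLEC17A lies above 0 with DMSO and at -1.49 with chidamide, and the other 6 lie below 0 in both.

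Other genes of the B cell surface moved more often up than down with chidamide. Over all genes, 43.3% were called higher and 31.6% lower in Raji-4RH, and 31.5% and 28.5% in Raji. Of 57 other surface antigens listed, 50 were tested, and 36 were called higher and 6 lower in Raji-4RH (median log2 fold change 0.58, beside 0.09 over all genes). In Raji 37 were called higher and 4 lower (median 0.74, beside 0.02). Of the 50, 7 passed the filter through chidamide libraries, so the filter favoured a rise of these in at least 1 line. Of the other 43 (split off after the values were seen), 29 were called higher and 6 lower in Raji-4RH (median 0.57), and 30 higher and 4 lower in Raji (median 0.58). Among genes of this list that averaged 5 FPKM or more over the libraries compared and had groups apart, the largest rises on the log2 scale in Raji were of CCR7, a chemokine receptor for lymph node homing, from 3.64 FPKM ± 0.0794 to 72.2 ± 4.57 (SD, n = 2), and CD83, an activation marker, from 23.6 ± 0.219 to 204 ± 0.738. In Raji-4RH, within the same limits, they were of the protease ADAM28 (1.86 ± 0.0594 to 14.1 ± 0.179 FPKM) and FCRL1 (3.33 ± 0.503 to 13.7 ± 0.58). Each of these was also called higher in the other line. The log2 fold changes there were 2.40 (CCR7) and 0.94 (CD83) in Raji-4RH, and 1.46 (ADAM28) and 2.90 (FCRL1) in Raji. MME (CD10) fell in both lines, from 17.3 ± 0.335 to 5.85 ± 0.126 FPKM in Raji and from 23.5 ± 0.914 to 9.57 ± 0.31 in Raji-4RH. CD79A, a chain of the B cell receptor, fell in Raji from 556 ± 27.3 to 290 ± 2.35 FPKM and in Raji-4RH from a mean of 371 to 178. CD48 fell in Raji-4RH from 27.1 ± 0.338 to 11 ± 0.27 FPKM, while its log2 fold change in Raji was 0.14 (limma adjusted p = 0.0471). With DMSO, 16 of the 50 were called higher and 26 lower in Raji-4RH than in Raji (median -0.17, beside 0.06), where 41.2% of all genes were called higher and 32.4% lower. CR2 was at 0.103 FPKM in Raji-4RH against 32.4 in Raji. SPN (CD43) went the other way, at 26.0 FPKM in Raji-4RH against 1.16 in Raji.

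**Figure D4:**
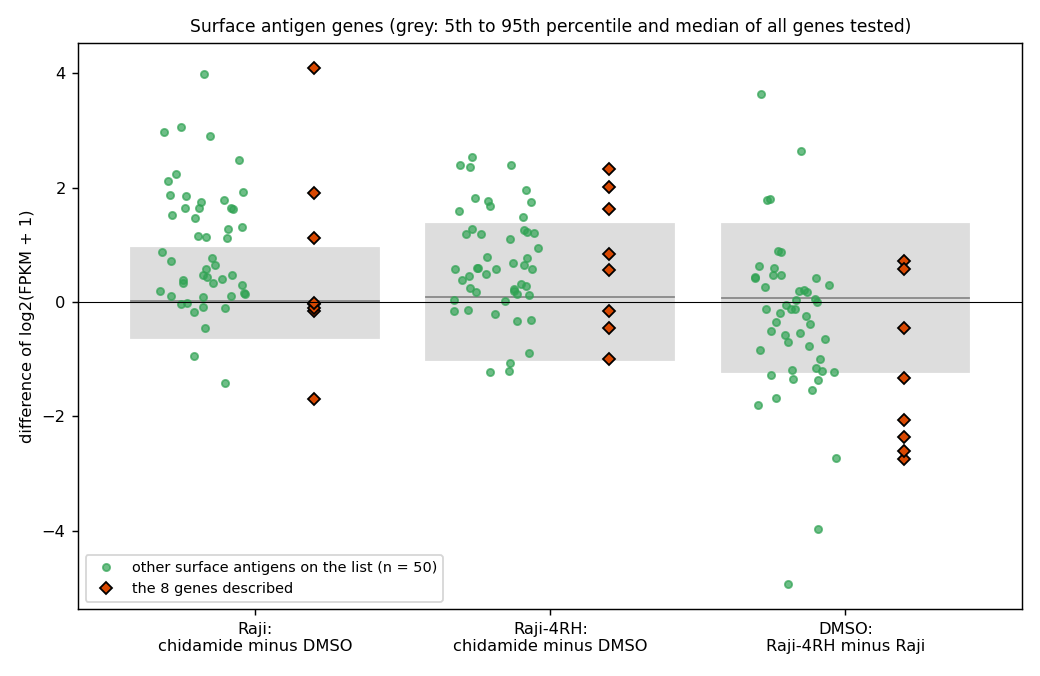
Differences of log2(FPKM + 1) of the 50 other surface antigen genes tested (circles) and of the 8 genes described (diamonds) in 3 comparisons, with the 5th to 95th percentile and the median of all 10710 genes tested in grey. Most circles lie above the median of all genes with chidamide in both lines, and 5 of the 8 diamonds lie below the 5th percentile (-1.22) in Raji-4RH against Raji with DMSO.

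Of 12 tested antibody targets in B cell malignancy other than the 8 genes, 6 were called higher and 1 lower with chidamide in Raji (median 0.32, beside 0.02 over all genes), and 7 higher and 1 lower in Raji-4RH (median 0.24, beside 0.09). The shares of all genes were 31.5% higher and 28.5% lower in Raji, and 43.3% and 31.6% in Raji-4RH. CD40, the receptor for T cell help, rose from 17.3 ± 0.823 to 56.4 ± 0.075 FPKM in Raji and from 13 ± 0.258 to 22.7 ± 0.61 in Raji-4RH. CD47 rose in Raji-4RH from 10.8 ± 0.18 to 19.2 ± 0.238 FPKM and was not called in Raji (log2 fold change 0.10, limma adjusted p = 0.0991). CD74, the invariant chain, rose in Raji from 522 ± 9.39 to 1300 ± 23.1 FPKM. It rose in Raji-4RH as well (log2 fold change 0.65, limma adjusted p = 3.42e-05). CD22 was lower in Raji-4RH DMSO than in Raji DMSO (51.8 ± 0.691 against 81.9 ± 2.74 FPKM). Of these 12 genes 9 were called lower and 2 higher in Raji-4RH than in Raji with DMSO (median -0.36, beside 0.06 over all genes). Over all genes, 32.4% were called lower and 41.2% higher in that comparison. Of 17 other genes of the MS4A family, 14 were placed, and 3 passed the filter. These 3 passed through chidamide libraries, so the filter favoured a rise in at least 1 line, and they are not counted as a result.

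Among 19 tested transcription factors described at the MS4A1 promoter, 7 were called higher and 10 lower with chidamide in Raji-4RH (median -0.14), and 8 higher and 4 lower in Raji (median 0.14). Over all genes the shares were 43.3% higher and 31.6% lower in Raji-4RH (median 0.09), and 31.5% and 28.5% in Raji (median 0.02). SPI1 (PU.1), an ETS factor, fell from 66.6 ± 6.37 to 35.6 ± 0.275 FPKM in Raji and from 52.6 ± 3.26 to 22.7 ± 3.56 in Raji-4RH. IKZF3 (Aiolos) fell from 39.6 ± 1.2 to 25.2 ± 0.0204 FPKM in Raji and from 27.6 ± 0.798 to 8.97 ± 0.0809 in Raji-4RH. FOXO1 rose from 9.88 ± 0.201 to 16.5 ± 0.295 FPKM in Raji and from 10.9 ± 0.0899 to 23.9 ± 1.43 in Raji-4RH, and SMAD3 rose in both lines as well (7.16 ± 0.599 to 20.5 ± 0.0247 and 7.99 ± 0.281 to 17.3 ± 2.59). With DMSO, 7 were called higher and 7 lower in Raji-4RH than in Raji, where 41.2% of all genes were called higher and 32.4% lower. POU2AF1 (OCA-B), the co-activator of the octamer factors, was at 40.1 ± 1.35 FPKM in Raji-4RH against 85.9 ± 3.1 in Raji, and POU2F1 (Oct-1) at 11.6 ± 0.254 against 5.12 ± 0.347. Whether any of these factors acted on MS4A1 in these cells was not tested.

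The ligands and partners of the other antigens were read in the same way. Their counts stand beside 43.3% of all genes called higher and 31.6% lower in Raji-4RH (median 0.09), and 31.5% and 28.5% in Raji (median 0.02). Several of these counts are near those shares. Of 8 genes of the CD27 ligand and adaptors, 3 were called higher and 4 lower with chidamide in Raji-4RH (median -0.06), and 3 higher and 2 lower in Raji (median 0.15). NFKB2 rose in both lines, from 16.3 ± 0.965 to 47.2 ± 2.22 FPKM in Raji and from 15.1 ± 0.603 to 24.5 ± 1.5 in Raji-4RH, while SIVA1, which binds the CD27 tail, fell from 16.3 ± 0.274 to 10.2 ± 0.209 and from 11.8 ± 0.0958 to 4.67 ± 0.122. CD70, the CD27 ligand, went from 70.0 ± 2.04 to 56.4 ± 5.31 FPKM in Raji-4RH (log2 fold change -0.31, SE 0.0684, limma adjusted p = 0.00308). Of 13 tested tetraspanins other than CD37, 7 were called higher and 2 lower in Raji-4RH (median 0.40), and 6 higher and 4 lower in Raji (median -0.12). Of these 13, 1 passed the filter through chidamide libraries. Without it, 6 were called higher and 2 lower in Raji-4RH (median 0.29), and 5 higher and 4 lower in Raji (median -0.14). CD82 rose in both lines (20.4 ± 1.02 to 43.2 ± 0.937 and 6.72 ± 0.0315 to 21.6 ± 1.81 FPKM), and CD81 fell in both (29.3 ± 0.68 to 12.6 ± 0.681 and 28.8 ± 0.091 to 16.3 ± 2.42). TSPAN33 rose in Raji from 8.19 ± 0.321 to 20.6 ± 1.13 FPKM and fell in Raji-4RH from 26.2 ± 1.29 to 19.9 ± 1.34.

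Of 7 tested genes of the CD38 family and NAD supply, 1 was called higher and 1 lower with chidamide in Raji-4RH (median 0.04), where CD38 itself rose, and 1 higher and 4 lower in Raji (median -0.35). For this and the next 2 lists, 43.3% of all genes were called higher and 31.6% lower in Raji-4RH, and 31.5% and 28.5% in Raji. Of the 7 genes of the CD38 family and NAD supply, 1 passed the filter through chidamide libraries. Without it, 1 was called higher and 1 lower in Raji-4RH (median 0.08), and 0 higher and 4 lower in Raji (median -0.40). NAPRT, which makes NAD from nicotinic acid, fell in Raji-4RH from 11.8 ± 0.424 to 6.1 ± 0.877 FPKM. It fell in Raji as well (log2 fold change -0.51, limma adjusted p = 0.00374). NAMPT, which makes NAD from nicotinamide, fell in Raji from 9.97 ± 1.03 to 7.57 ± 0.487 FPKM and was not called in Raji-4RH (-0.09, limma adjusted p = 0.298). Of 23 tested genes of the CD52 receptor and GPI anchor synthesis, 7 were called higher and 9 lower in Raji-4RH (median 0.01), and 9 higher and 4 lower in Raji (median 0.12). SIGLEC10, a receptor for soluble CD52, fell in Raji-4RH from 7.52 ± 0.413 to 3.61 ± 0.313 FPKM. Of 6 tested CD72 partners, 2 were called higher and 2 lower in Raji-4RH (median 0.05) and 3 higher and 2 lower in Raji (median 0.10). PTPN6 (SHP-1), the phosphatase that CD72 recruits, rose in both lines (10.2 ± 0.526 to 43.5 ± 0.976 and 6.14 ± 0.269 to 13.8 ± 2.72 FPKM), and the adaptor BLNK fell in both (11.3 ± 0.191 to 5.69 ± 0.071 and 11.6 ± 0.0587 to 4.08 ± 0.298). The CD72 ligand SEMA4D was at 2.15 ± 0.0581 FPKM in Raji-4RH DMSO against 8.01 ± 0.165 in Raji DMSO.

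In the next 2 lists as well, some genes passed the filter through chidamide libraries, 2 of 12 and 3 of 7. The filter thus favoured a rise of these in at least 1 line, though not all of them were called in both lines. Shares over all genes were again 43.3% higher and 31.6% lower in Raji-4RH, and 31.5% and 28.5% in Raji. Of 12 tested inducers and partners of FCER2, 10 were called higher and 1 lower with chidamide in Raji-4RH (median 0.79), and 8 higher and 2 lower in Raji (median 0.66). Without those 2 genes, 8 were called higher and 1 lower in Raji-4RH (median 0.65), and 6 higher and 2 lower in Raji (median 0.51). NOTCH2, a receptor that induces FCER2 in B cells, rose from 1.75 ± 0.0157 to 10.3 ± 0.526 FPKM in Raji-4RH and from 5.22 ± 0.0376 to 17.2 ± 0.0182 in Raji. CR2 rose in Raji from 32.4 ± 1.45 to 126 ± 1.37 FPKM, and in Raji-4RH it stood at 0.103 and 0.114 FPKM with DMSO and chidamide. STAT6, the factor downstream of the interleukin 4 receptor, fell in Raji from 44.3 ± 0.166 to 30.8 ± 0.214 FPKM and went the other way in Raji-4RH (log2 fold change 0.42, limma adjusted p = 7.07e-05, a value looked up after the fall was seen). NOTCH1 fell in both lines (8.04 ± 1.12 to 4.95 ± 0.103 and 10.8 ± 0.435 to 7.49 ± 1.77). Of 7 tested C-type lectins near or like FCER2 and CLEC17A, 4 were called higher and 1 lower in Raji-4RH (median 0.33), and 5 higher and 1 lower in Raji (median 0.42). Of the 4 left without those 3 genes, 3 were called higher and 1 lower in each line (median 0.54 in Raji-4RH and 0.40 in Raji). CLEC7A (dectin-1) rose in Raji from 2.41 ± 0.245 to 16.8 ± 0.991 FPKM, and CLEC2D fell in Raji from 22.1 ± 1.12 to 7.53 ± 0.395.

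The genes most like 3 of the 8 over the 8 libraries were found among 2443 genes whose mean reached 5 FPKM and whose group means differed by 1 or more on the log2 scale. UCP2, a mitochondrial carrier, was most like MS4A1 (Pearson r = 0.998), with 86.1, 149, 27.1 and 44.8 FPKM in Raji DMSO, Raji chidamide, Raji-4RH DMSO and Raji-4RH chidamide, and MYCBP2, RHOV, PRKACA and PLCG2 followed with r of 0.996, 0.996, 0.996 and 0.995. Among the genes most like CD38 were SEMA4D (0.998), CCDC69 (0.997), CEND1 (0.995) and SUSD3 (0.994). Most like FCER2 was IRF1, an interferon-induced factor (0.999), with 7.05, 13.9, 2.42 and 6.35 FPKM in the same order of groups, then LAMC1 and STAP1 (both 0.997), GRK3 and CHST2 (both 0.996). Among the 8 genes themselves, MS4A1 ran closest to FCER2 (r = 0.947), and CD38 rose and fell most nearly with CD37 (0.971). CD72 ran against CD38 (r = -0.995), CD37 (-0.953), FCER2 (-0.909) and MS4A1 (-0.893). These values describe 8 libraries in 4 groups that share lines and treatments, so the 8 points are not independent of each other.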

How the data were processed

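The authors deposited a single table of FPKM values, with a gene length in each row. According to the submitters' processing notes, HISAT2 2.0.5, SAMtools 1.7, HTSeq 0.9.1 and DESeq2 1.22.2 were used, with hg38. The library kit was NEBNext Ultra, and strand handling was not given in the sources used here. Multiplied by gene length and library total, 100% of non-zero FPKM values were whole reads (tolerance 0.01). The last 662 of 63967 rows repeat the first 662. Values were moved by a table of row shifts in 12 segments, which placed 18143 labels holding 90.7% to 93.2% of the reads, and the other labels were not analysed here. FPKM was recomputed with each gene's own length.

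Members, lists and row shifts were chosen with earlier results of these data known. Genes reaching 1 FPKM in 2 or more libraries (10710) were tested with limma 3.58.1 (R 4.3.3, lmFit, contrasts.fit, eBayes with trend) on log2(FPKM + 1), 1 coefficient per group over all 8 libraries, with Benjamini-Hochberg adjustment. Tested on simulated data for Raji-4RH chidamide against DMSO, 196 of 200 genes changed by a log2 fold change of 1 were called, with 9 unchanged genes, among 10710. The changed genes were drawn from those with a mean above 2 on the log2(FPKM + 1) scale, and the noise was normal. In the data 8022 genes were called in this comparison, so these rates need not hold there or for genes at low level. List genes were eligible to be named if they were among the 2 largest called rises or falls of a list in a comparison, averaged 5 FPKM or more and had groups apart, and a part of these is printed. Some genes that the rules name are not reported here. Alternatives were another filter, pseudocount, scaling, variance prior, choice of samples, pairing, row placement, voom, a fold threshold and each library left out. Tables and plots were made with Python 3.11.15, pandas 2.3.3, numpy 2.4.6, scipy 1.17.1 and matplotlib 3.10.9.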

Additional observations from a re-analysis of the deposited data

Results flagged for a closer look

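The change of 6 genes with chidamide differed between the lines by the limma test of the difference itself (Raji-4RH minus Raji, log2 scale). Over all genes, 48.8% were called in that test in either direction. CD38 (1.65), CD37 (0.71), CD27 (0.69) and FCER2 (0.41) had the more positive change in Raji-4RH, and CLEC17A (-2.07) and CD72 (-0.45) the more positive change in Raji. For CD27 the positive value is a smaller fall. For FCER2 the call was lost under quantile normalization and when some single libraries were left out. No group had 4 or more libraries, so single libraries were not tested for standing apart.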

How the results depend on the processing

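Of 672 values of the 8 genes under alternatives other than the rows as deposited, 652 kept their direction and their side of the threshold, 6 lost a call, 5 gained one and 9 changed sign, and these 9 were all of values not called. Quantile normalization gave 0.12 for CD52 in Raji-4RH, 0.078 for CD38 in Raji and 0.13 for the CD52 difference between the lines. With single libraries left out, CD38 in Raji ranged from -0.0654 to 0.00614, CD72 in Raji from -0.0394 to 0.017 and the CD52 difference from -0.16 to 0.0289. With a log2 fold change of at least 1 required, 1620 genes (3 of the 8) were called for chidamide in Raji-4RH, 560 in Raji, 1703 (5 of the 8) between the lines with DMSO, 2228 (5) with chidamide and 676 (2) for the difference of effects. The fewer calls follow from the added threshold.

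Taken from the row of the label, of 35 values 22 kept direction and call, 2 lost a call, 1 gained one and 10 changed sign, as the genes with shifted rows then take another gene's values. With chidamide these were MS4A1 at -0.57 and CD27 at 0.11 and CD72 at 0.0489 in Raji-4RH, and MS4A1 at -0.21 and CD27 at 0.18 in Raji. Between the lines with DMSO they were MS4A1 at 0.19 and CLEC17A at -0.55, and for the difference of effects CD27 at -0.0604, CD72 at 0.0914 and CLEC17A at 0.0681. CD52 had too low a value in the row of its label to be tested.

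Deviations of same-numbered libraries correlated at -0.279 to 0.166 over the group pairs. With 2 libraries per group this cannot decide whether the replicate numbers pair the libraries. The replicate block gave 8031 genes for chidamide in Raji-4RH, 6317 in Raji, 7748 and 8397 between the lines with DMSO and with chidamide and 4915 for the difference of effects, and changed no call of the 8 genes. Depth limits FCER2 in Raji-4RH DMSO, with 3 and 1 reads.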
